A study of Rattus norvegicus with 4 samples.

Results

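The aryl hydrocarbon receptor genes and their Cyp1 targets were examined in rat liver during inhalational anesthesia. The 7 genes were taken by symbol: the receptor *Ahr*, its partner *Arnt*, its repressor *Ahrr*, the induced enzyme *Tiparp*, and the cytochrome P450 genes *Cyp1a1*, *Cyp1a2*, and *Cyp1b1*. All 7 were found with 1 row per library among 16992 annotated genes. *Ahr*, *Arnt*, *Tiparp*, and *Cyp1a2* had TPM values (a transcript level scaled for transcript length and library size) above 2 in all 4 libraries, and the other 3 were under this limit in all 4. Male wild-type Wistar rats, bought at 6 weeks of age and kept for at least 1 week, had no food and water for 2 hours and then breathed 4.5% sevoflurane or 6.0% desflurane through a nose cone in 50% oxygen. The left lateral liver lobe was taken after 6 hours or, as the control of the same agent, after less than 1 minute, so that the controls had also inhaled the agent. All rats were killed at about the same time of day. By these methods the rats at 6 hours had been without food for longer than the controls, and the part of fasting was not tested. With 1 rat and 1 library for each of the 4 conditions, the condition and the individual rat cannot be told apart, and no p-values were calculated.

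The aryl hydrocarbon receptor waits in the cytosol in a complex with Hsp90 and co-chaperones. After it binds a ligand, such as dioxin, a polycyclic hydrocarbon, or a tryptophan derivative, it enters the nucleus, pairs with ARNT, and binds xenobiotic response elements that share the core GCGTG. *Cyp1a1*, *Cyp1b1*, *Ahrr*, and *Tiparp* are induced by the active receptor, and the products of *Ahrr* and *Tiparp* restrain it in turn. *Cyp1a2* differs in that hepatocytes, chiefly those around the central vein, make it without an added ligand, whereas *Cyp1a1* is kept low in untreated liver.

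The upstream sequences of the genes that passed the calling limits, *Ahr* and *Cyp1a2*, are shown beside that of *Ahrr*. Among the genes with a promoter entry, *Ahrr* held the most copies of the receptor core. RefSeq promoter entries matched 6 of the 7 genes (GRCr8 build, whereas the expression files use rn6). *Cyp1a1* had no entry and was not searched. Each run is the 250 bases before the transcription start, 5′ to 3′ on the strand of the gene. Capitals mark GCGTG, the core of the xenobiotic response element, and TATAAA, the TATA box, searched on both strands.
*Ahr* (chr6:57998902-57999151, minus strand): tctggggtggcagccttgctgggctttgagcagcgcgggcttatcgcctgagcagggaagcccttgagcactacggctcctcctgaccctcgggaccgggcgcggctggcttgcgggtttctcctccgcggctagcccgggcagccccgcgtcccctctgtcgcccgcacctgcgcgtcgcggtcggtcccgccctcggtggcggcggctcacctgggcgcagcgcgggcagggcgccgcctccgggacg
*Cyp1a2* (chr8:66978150-66978399, minus strand): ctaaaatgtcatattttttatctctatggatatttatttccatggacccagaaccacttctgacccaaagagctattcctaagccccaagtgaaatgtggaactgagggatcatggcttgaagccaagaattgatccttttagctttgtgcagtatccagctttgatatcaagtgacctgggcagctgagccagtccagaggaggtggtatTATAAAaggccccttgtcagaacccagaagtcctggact
*Ahrr* (chr1:30821969-30822218, plus strand): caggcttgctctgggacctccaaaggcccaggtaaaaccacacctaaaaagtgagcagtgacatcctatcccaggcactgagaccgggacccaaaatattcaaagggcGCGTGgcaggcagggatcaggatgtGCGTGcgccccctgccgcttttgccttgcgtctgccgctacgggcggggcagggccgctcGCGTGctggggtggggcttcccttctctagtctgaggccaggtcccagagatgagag

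The window of *Ahr* was 75.2% G and C and held neither motif. The window of *Cyp1a2* was 44.0% G and C, with a TATAAA 34 bases before the start and no GCGTG. In *Ahrr*, GCGTG ended 138, 113, and 53 bases before the start. Among the windows not printed, *Cyp1b1* held 2 copies, and *Arnt* and *Tiparp* held 1 each. GCGTG was present in 27.2% of all 27457 windows of this length, with at least 2 copies in 8.59%, and TATAAA was present in 13.1%. These letter matches describe the windows only, and elements farther from the start were not searched.

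*Ahr*, the receptor itself (rn6 chr6:54963990-55001464, minus strand), stood at 33.1 TPM in the control and 36.6 TPM at 6 hours with sevoflurane, and at 33.6 TPM in the control and 73.9 TPM at 6 hours with desflurane. The first 3 values were close together, and the liver under desflurane stood apart above them. Genes were called with the rule of the study, a TPM above 2 in the higher library and a difference of more than 2-fold, and were counted as tested when TPM was above 2 in either library. *Ahr* was 2.20-fold higher with desflurane than in its own control (log2 change 1.14) and 2.23-fold higher than in the sevoflurane control (log2 change 1.16). It was also 2.02-fold higher than at 6 hours of sevoflurane. With sevoflurane, *Ahr* was 1.11-fold of its own control and 1.09-fold of the desflurane control, neither of which passed, and the controls differed by 1.01-fold. In whole tissue, more cells of a type and more RNA per cell cannot be told apart.

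With desflurane over its own control, 2 of the 4 tested genes, *Ahr* and *Cyp1a2*, were called, both higher. The background of this comparison was 4.27% of 9855 genes called, 2.79% higher and 1.48% lower. *Ahr* was the 195th from the top of these genes and *Cyp1a2* the 250th. With desflurane over the sevoflurane control, 1 of the 4 genes, *Ahr*, was called, beside 4.42% of 9865 genes (2.84% higher and 1.58% lower). *Ahr* was called higher against both controls, as were 1.25% of 9993 genes, and against each of the 3 other libraries, as were 33 genes (0.330%).

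All tested genes together had a median log2 change of 0.12 with desflurane over its own control. After median-of-ratios scaling, which removes this shift, the log2 change of *Ahr* was 1.01 over its own control and 1.05 over the sevoflurane control. With FPKM in place of TPM these were 1.06 and 0.90, and the second no longer passed. The call over sevoflurane at 6 hours was lost with a pseudocount (log2 change 0.99), median-of-ratios scaling (0.96), FPKM (0.81), and annotated rows rescaled to a common sum (0.99).

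**Figure D1:**
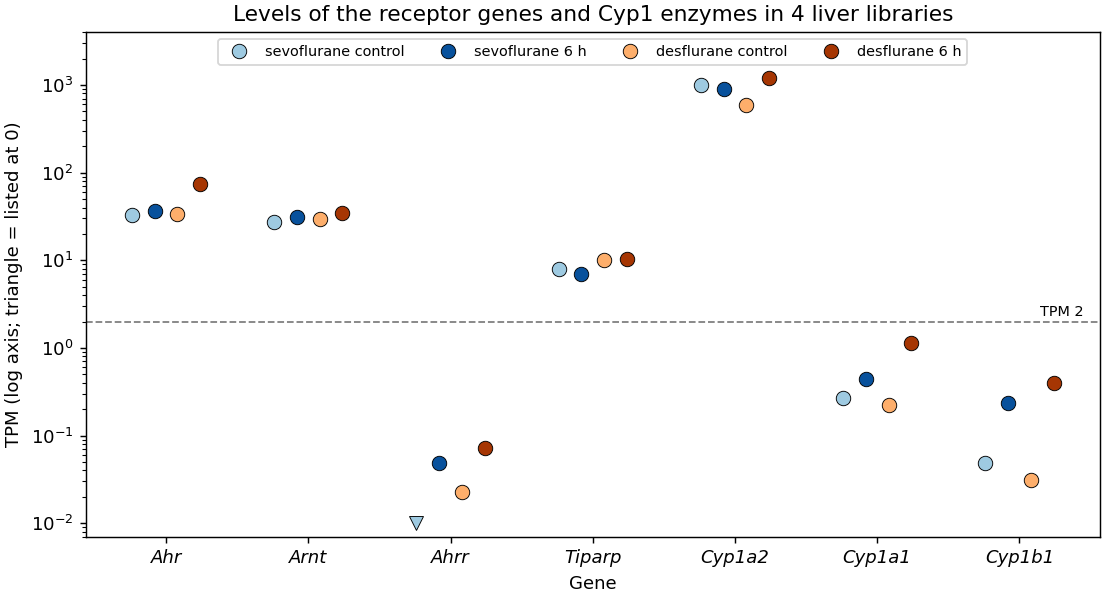
TPM (log axis) of the 7 genes in the 4 liver libraries, 1 point per library, with the TPM limit of 2 as a dashed line and a triangle for a gene listed at 0. *Ahr* was between 33.1 and 36.6 in 3 libraries and 73.9 after 6 hours of desflurane, *Cyp1a2* was lowest in the desflurane control, and *Ahrr*, *Cyp1a1*, and *Cyp1b1* stayed under the limit in all 4.

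*Arnt*, the partner that the receptor needs to bind DNA (rn6 chr2:196594303-196651179, plus strand), had the smallest ratio of highest to lowest TPM among the 7 genes, 1.27. It stood at 27.3 in the control and 30.9 at 6 hours with sevoflurane, and at 29.5 and 34.7 with desflurane. The highest value, with desflurane, was 1.18-fold of its own control, and *Arnt* was called in none of the 6 comparisons. The ratio of *Ahr* to *Arnt* TPM was 1.21 and 1.19 with sevoflurane (control, 6 hours), and 1.14 and 2.13 with desflurane. The receptor transcript was thus near the level of its partner in 3 livers and above it in the liver under desflurane.

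*Cyp1a2*, which oxidizes caffeine, aromatic amines, and estrogens, was the most abundant of the 7 genes. It stood at 996 TPM in the control and 909 TPM at 6 hours with sevoflurane, and at 589 TPM and 1214 TPM with desflurane. By level it was the 95th, the 105th, the 147th, and the 87th of the 16992 genes in these libraries. The lowest value was the desflurane control and the highest was the liver at 6 hours of the same agent, with both sevoflurane libraries in between.

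*Cyp1a2* was 2.06-fold higher with desflurane than in its own control (log2 change 1.04), just past the limit. Over the sevoflurane control it was 1.22-fold and was not called. With sevoflurane it was 0.913-fold of its own control and 1.54-fold of the desflurane control, neither of which passed. The desflurane control was at 0.592 of the sevoflurane control, and only 2.21% of 9756 genes had a lower ratio between the controls. The livers at 6 hours differed by 1.34-fold. The call over the own control was lost after median-of-ratios scaling (log2 change 0.92), with FPKM (0.97), with rescaled annotated rows (0.98), and with the mean of the 2 controls (0.62).

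**Figure D2:**
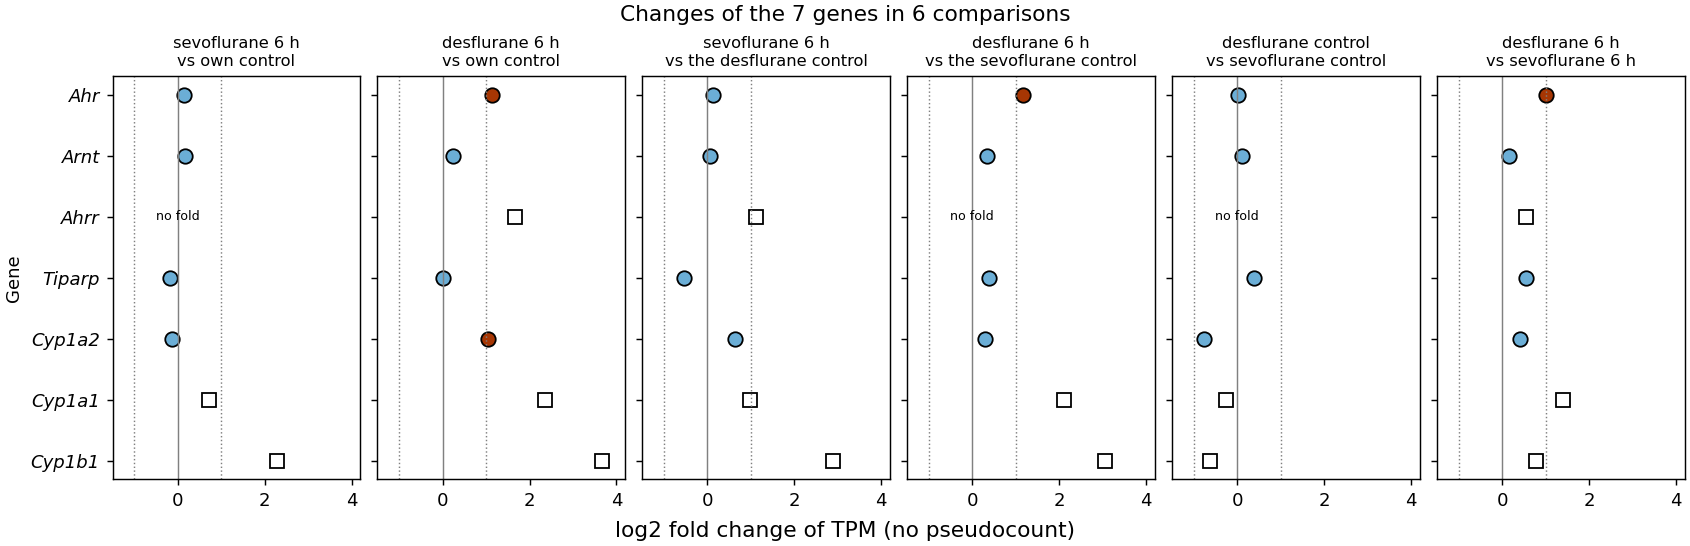
Log2 fold changes of TPM for the 7 genes (rows) in the 6 comparisons (panels). Filled red circles passed the calling limits, blue circles were tested and did not pass, open squares had a TPM under 2 in both libraries, and dotted lines mark 2-fold. No fold is drawn for *Ahrr* against the library where it was listed at 0. *Ahr* was past the limits in all 3 panels with the liver after 6 hours of desflurane as the first library, and *Cyp1a2* in 1 of them.

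Markers of the central vein region were set beside *Cyp1a2*, since the enzyme is made chiefly there. The 11 pericentral genes had summed TPM values of 5094 in the control and 3807 at 6 hours with sevoflurane, and of 3497 and 4650 with desflurane. *Cyp2e1*, which oxidizes ethanol, made up most of these sums and stood at 3361 and 2456 TPM with sevoflurane and at 2034 and 3299 TPM with desflurane, lowest in the same library as *Cyp1a2*. The other 10 genes summed to 1733 and 1351 TPM with sevoflurane and to 1463 and 1351 TPM with desflurane. The most abundant of these was *Rgn*, a calcium-binding protein. *Rgn* stood at 693 and 484 TPM with sevoflurane and at 643 and 479 TPM with desflurane. The low sums at 6 hours thus rest in part on *Rgn* and do not describe the 10 genes alike. In the desflurane control, 9 of the 11 were at a lower level than in the sevoflurane control, and 1 passed, beside 1.17% of all genes tested. This was the glutamate transporter *Slc1a2* (0.454-fold, named after its value was seen). With desflurane over its own control, 4 of 11 had higher and 7 lower values, and *Slc1a2* alone was called (2.44-fold). Of all genes tested, 2.79% were called higher there. *Cyp2e1* was 1.62-fold of its own control with desflurane, and *Rgn* was 0.744-fold. The 10 periportal genes summed to 4196 and 5886 with sevoflurane and to 3322 and 6110 with desflurane. Over the own controls 2 and 3 were called higher, beside 2.23% and 2.79% of all genes tested. Over the other control 3 were called higher with sevoflurane and 0 with desflurane. Between the controls 1 was called, lower in the desflurane control. The 6 general hepatocyte genes, albumin among them, summed to between 130816 and 146944, with none called in any of the 6 comparisons. The part of liver zonation in the values of *Cyp1a2* was not tested.

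The genes whose profile over the 4 libraries was closest to that of *Cyp1a2* were *Pbld1*, *Tfap4*, *Agxt2*, *Rxylt1*, and *Cyp2d3*. Likeness was the distance between log2(TPM + 1) values centered on their mean, among genes above 2 TPM in all 4 libraries, and it was between 0.0796 and 0.135 for these 5. *Agxt2*, a mitochondrial aminotransferase, stood at 130 TPM in both sevoflurane libraries, and at 85.5 TPM and 169 TPM with desflurane (control, 6 hours). *Cyp2d3*, another P450, stood at 271 and 228 with sevoflurane and at 163 and 304 with desflurane. All 5 were lowest in the desflurane control and highest after desflurane, which is a description of 4 libraries.

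**Figure D3:**
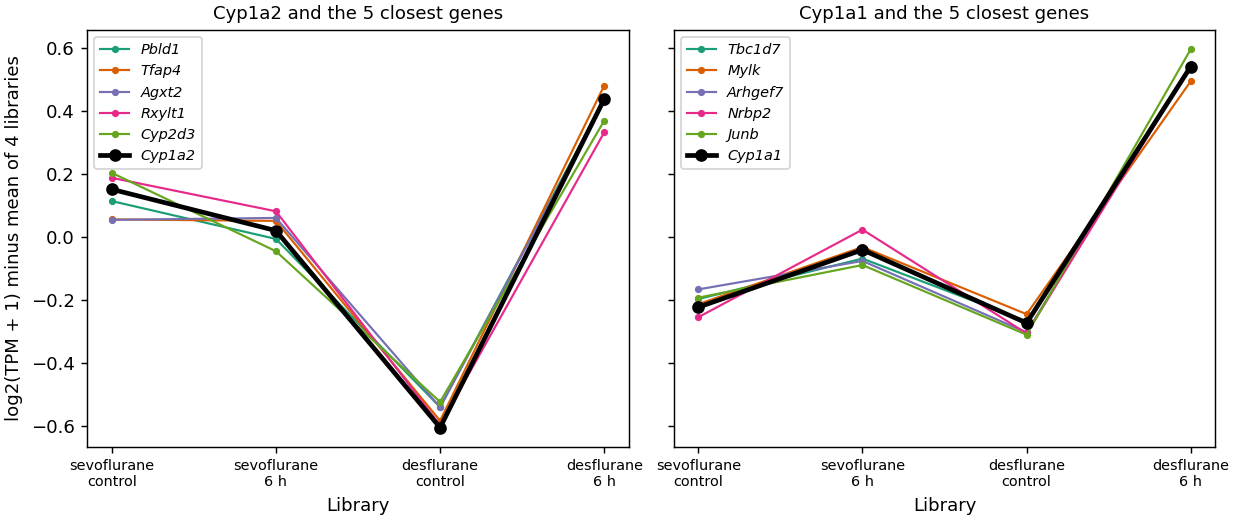
Profiles of *Cyp1a2* (left) and *Cyp1a1* (right), as black lines, with the 5 closest genes each, as log2(TPM + 1) minus the mean of the 4 libraries. The genes on the left were lowest in the desflurane control, and those on the right were nearly level in 3 libraries and highest after 6 hours of desflurane.

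*Cyp1a1*, which metabolizes polycyclic hydrocarbons and is the classical readout of the receptor, was low in all livers. It stood at 0.267 TPM in the control and 0.437 TPM at 6 hours with sevoflurane, and at 0.223 TPM and 1.15 TPM with desflurane. The coverage behind these values, the mean number of reads over each exon base, was 0.479 and 0.740 with sevoflurane and 0.418 and 1.94 with desflurane. The liver at 6 hours of desflurane held the highest value, 5.15-fold of its own control, 4.31-fold of the sevoflurane control, and 2.63-fold of the sevoflurane liver at 6 hours. With TPM below 2 in every library it could not be called, and these 3 differences passed with a TPM limit of 1.

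*Cyp1a1* and *Cyp1a2* lie next to each other on chromosome 8 in opposite directions. In rn6, *Cyp1a2* spans chr8:62451360-62458244 on the minus strand and *Cyp1a1* spans chr8:62472087-62478117 on the plus strand, with 13842 bases between their starts. They are paralogs with similar sequences, and *Cyp1a1* made up 0.0268% and 0.0481% of their summed TPM with sevoflurane (control, 6 hours), and 0.0379% and 0.0947% with desflurane. Both genes were lowest in the desflurane control and highest after 6 hours of desflurane. The sevoflurane libraries lay in between, with *Cyp1a2* higher in the control than at 6 hours and *Cyp1a1* lower. Whether reads of the abundant gene were counted for the rare one was not tested. The 5 genes closest in profile to *Cyp1a1* were *Tbc1d7*, *Mylk*, *Arhgef7*, *Nrbp2*, and *Junb*, at distances of 0.0385 to 0.0875. At the low level of *Cyp1a1* the added 1 TPM shrinks its changes, so that its log2 change of 2.37 with desflurane over its own control became 0.81 on this scale, and the likeness is to that smaller change. *Junb*, an immediate early transcription factor, stood at 27.0 and 29.1 TPM with sevoflurane and at 24.8 and 47.4 TPM with desflurane.

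*Cyp1b1*, which oxidizes estradiol and is made largely outside hepatocytes (rn6 chr6:2310988-2316722, minus strand), stood at 0.0483 TPM in the control and 0.234 TPM at 6 hours with sevoflurane, and at 0.0315 TPM and 0.401 TPM with desflurane. Both livers at 6 hours had higher values than both controls. Coverage was between 0.0589 and 0.676, less than 1 read per base, and no call was possible. The ratios over the own control, 4.84 with sevoflurane and 12.8 with desflurane, rest on these low control values. Markers of stellate cells and fibroblasts, in which this enzyme is also found, summed to between 331 and 381. Over the own controls, 1 of 11 was called higher by sevoflurane and 0 by desflurane, beside 2.23% and 2.79% of all genes tested. Over the other control, 1 was called higher and 1 lower by sevoflurane, beside 2.52% and 2.59%. Desflurane called 1 higher there, beside 2.84%.

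*Ahrr*, which competes with the receptor for ARNT (rn6 chr1:31603297-31698329, plus strand), was listed at 0 in the sevoflurane control, at 0.0485 TPM at 6 hours of sevoflurane, and at 0.0224 TPM and 0.0716 TPM with desflurane. Coverage reached at most 0.121, and no difference was detectable at this depth. *Tiparp*, a mono-ADP-ribosyltransferase that inactivates the receptor (rn6 chr2:157316334-157342979, plus strand), stood at 7.85 TPM in the control and 6.98 TPM at 6 hours with sevoflurane, and at 10.2 TPM and 10.3 TPM with desflurane. The desflurane libraries were nearly equal, at a ratio of 1.01, and both lay above the sevoflurane libraries. With sevoflurane, *Tiparp* was 0.889-fold of its own control and 0.685-fold of the desflurane control, and the controls differed by 1.30-fold. *Tiparp* was called in none of the 6 comparisons.

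With sevoflurane, 0 of the 4 tested genes were called over its own control, where 5.54% of 9754 genes were called, 2.23% higher and 3.30% lower. Over the desflurane control 0 of the 4 were called, beside 5.12% of 9754 genes (2.52% higher and 2.59% lower). Between the controls 0 of the 4 were called, beside 2.34% of 9756 genes (1.17% in each direction). Between the livers at 6 hours 1 of the 4, *Ahr*, was called higher with desflurane, beside 3.93% of 9829 genes (2.76% higher and 1.17% lower). The median log2 change of the 4 tested genes was 0.64 with desflurane and 0.01 with sevoflurane over the own controls, beside 0.12 and 0.05 for all genes tested.

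**Figure D4:**
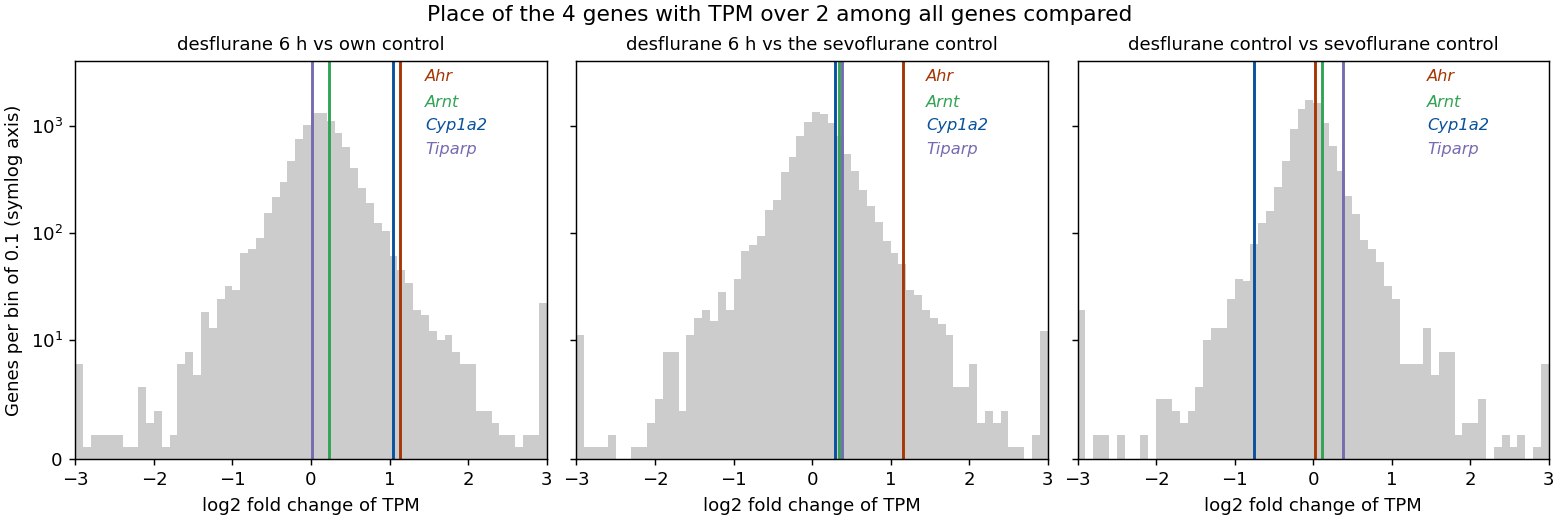
Distribution of log2 fold changes of all tested genes (gray, bins of 0.1, values beyond 3 in the outer bins, symlog axis) with the 4 tested genes of the receptor group as vertical lines. *Ahr* lay at 1.14 and 1.16 in the panels for desflurane and at 0.02 between the controls, whereas *Cyp1a2* lay at 1.04, 0.29, and -0.76.

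The genes of the complex that holds the receptor in the cytosol came next. Of the 6 chaperone genes, 1 was called lower with desflurane over its own control, beside 1.48% of all genes tested. This was *Hsp90aa1*, the inducible Hsp90 (named after its value was seen). It stood at 68.1 TPM in the control and 117 TPM at 6 hours with sevoflurane, and fell from 80.1 TPM to 39.5 TPM with desflurane, to 0.493-fold of its own control. Against the sevoflurane control it was 0.580-fold and was not called. *Hsp90ab1*, the constitutive Hsp90 and the most abundant of the list, stood at 320 and 422 TPM with sevoflurane and at 341 and 243 TPM with desflurane. *Ptges3*, the co-chaperone p23, stood at 109 and 116 TPM with sevoflurane and at 97.7 and 93.2 TPM with desflurane. With desflurane, 4 of the 6 had lower values than in its own control, at a median change of -0.18 on the log2(TPM + 1) scale beside 0.11 for all genes tested. With sevoflurane, 4 of the 6 had higher values at a median of 0.24 and none was called.

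Of 15 measured relatives with a PAS domain, 9 were tested with desflurane over its own control, and 2 were called higher and 1 lower. Of all genes tested, 2.79% were called higher and 1.48% lower there. With sevoflurane over its own control 8 were tested, with 0 called higher and 2 lower, beside 2.23% and 3.30% of all genes tested. Over the other control 9 were tested with each agent. Desflurane called 1 higher and 1 lower, beside 2.84% and 1.58% of all genes tested. Sevoflurane called 2 higher and 3 lower, beside 2.52% and 2.59%. *Per1*, a repressor of the circadian clock, stood at 8.92 and 16.8 TPM with sevoflurane and at 4.46 and 24.4 TPM with desflurane. It was 5.46-fold higher with desflurane than in its own control and 2.73-fold higher than in the sevoflurane control. With sevoflurane it was 1.89-fold of its own control, which did not pass, and 3.77-fold of the desflurane control, which did. *Per3*, another clock repressor (named after its values were seen), was called with desflurane over its own control (2.29-fold) but not over the sevoflurane control (1.43-fold), and with sevoflurane over the desflurane control (2.52-fold) but not over its own (1.58-fold). *Arntl2*, a partner of the clock proteins, was called lower with both agents against both controls, as were 1.36% of 9993 genes with sevoflurane and 0.570% with desflurane. It went from 4.34 to 0.901 TPM with sevoflurane and from 2.78 to 1.24 TPM with desflurane. *Npas2*, another clock activator, was called lower with sevoflurane against both controls (0.338-fold of its own). The hypoxia-inducible factors, which share ARNT with the receptor, were the most abundant relatives, and neither was called. *Epas1* stood at 134 and 171 TPM with sevoflurane and at 118 and 186 TPM with desflurane, and *Hif1a* was between 36.7 and 41.8 TPM. None of the 11 coactivators and corepressors measured was called with either agent over either control, and *Ncoa2* and *Ncor1*, the most abundant, were between 35.5 and 47.3 TPM.

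A wider list of 19 other enzymes and genes assigned to the receptor battery was taken next, of which 16 were tested with each agent over each control. Whether each is a target of the receptor in this liver was not tested. With desflurane over its own control 0 were called, beside 4.27% of all genes tested. The median change was 0.02 on the log2(TPM + 1) scale, beside 0.11 for all genes tested. Over the sevoflurane control 1 was called higher, *Fgf21*, a fasting hormone of the liver, beside 2.84% of all genes tested. With sevoflurane over its own control 2 were called higher, *Fgf21* and the amino acid transporter *Slc7a5* (2.19-fold, named after its value was seen). Of all genes tested, 2.23% were called higher there, and over the desflurane control 2.52% higher and 2.59% lower. With sevoflurane over the desflurane control 2 were called higher, *Fgf21* (2.94-fold) and *Ugt1a1* (2.24-fold), and 1 lower, *Pdk4*, a brake on glucose oxidation (0.373-fold, named after its value was seen), whereas *Slc7a5* was 1.84-fold and not called. *Fgf21* stood at 12.2 and 121 TPM with sevoflurane and at 41.3 and 24.5 TPM with desflurane, so that it was higher at 6 hours with the first agent and lower with the second, where it did not pass. It was also called between the controls, 3.40-fold higher in the desflurane control. *Gsta2*, a glutathione transferase, stood at 576 TPM in both sevoflurane libraries and at 614 and 366 TPM with desflurane. *Ugt1a1*, which conjugates bilirubin, stood at 346 and 663 TPM with sevoflurane and at 296 and 477 TPM with desflurane. It shares exons with the other genes of its locus, some of which are also in the list, and its value is uncertain. *Nqo1*, a quinone reductase (named after its values were seen), stood at 7.06 and 10.4 TPM with sevoflurane and at 8.89 and 8.94 TPM with desflurane.

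The liver also makes and removes ligands of the receptor through tryptophan enzymes. *Tdo2*, tryptophan dioxygenase, the entry to the kynurenine pathway, stood at 410 and 623 TPM with sevoflurane and at 343 and 816 TPM with desflurane. With desflurane it was 2.38-fold of its own control, which passed, and 1.99-fold of the sevoflurane control, just short of the limit. With sevoflurane it was 1.52-fold of its own control and was not called. Of the 11 tryptophan enzymes measured, *Tdo2* was the 1 called with desflurane over its own control, with 9 at higher and 1 at lower values. Of all genes tested, 2.79% were called higher there, and 2.23% with sevoflurane over its own control. The median change of the 11 was 0.20 on the log2(TPM + 1) scale, beside 0.11 for all genes tested. Sevoflurane called 1, the kynurenine aminotransferase *Kyat1* (2.01-fold of its own control, named after its value was seen), which was 1.52-fold of the desflurane control and not called there. *Haao*, which acts farther down the pathway, was between 168 and 224 TPM, and *Ido1*, the other dioxygenase (also named after its values were seen), was listed at 0 in all 4 libraries.

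Of the 6 partner proteins of P450 enzymes, 2 were called higher with both agents against both controls, as were 1.17% of 9993 genes with sevoflurane and 1.25% with desflurane. *Por*, the reductase that hands electrons to the P450 enzymes of the endoplasmic reticulum, rose from 144 to 642 TPM with sevoflurane and from 119 to 415 TPM with desflurane. *Alas1*, the first enzyme of heme synthesis, rose from 98.2 to 433 TPM with sevoflurane and from 100.2 to 304 TPM with desflurane. The 4 others were not called. *Cyb5a*, an electron donor, stood at 974 and 1153 TPM with sevoflurane and at 791 and 1135 TPM with desflurane, and *Pgrmc1* was between 815 and 930 TPM.

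**Figure D5:**
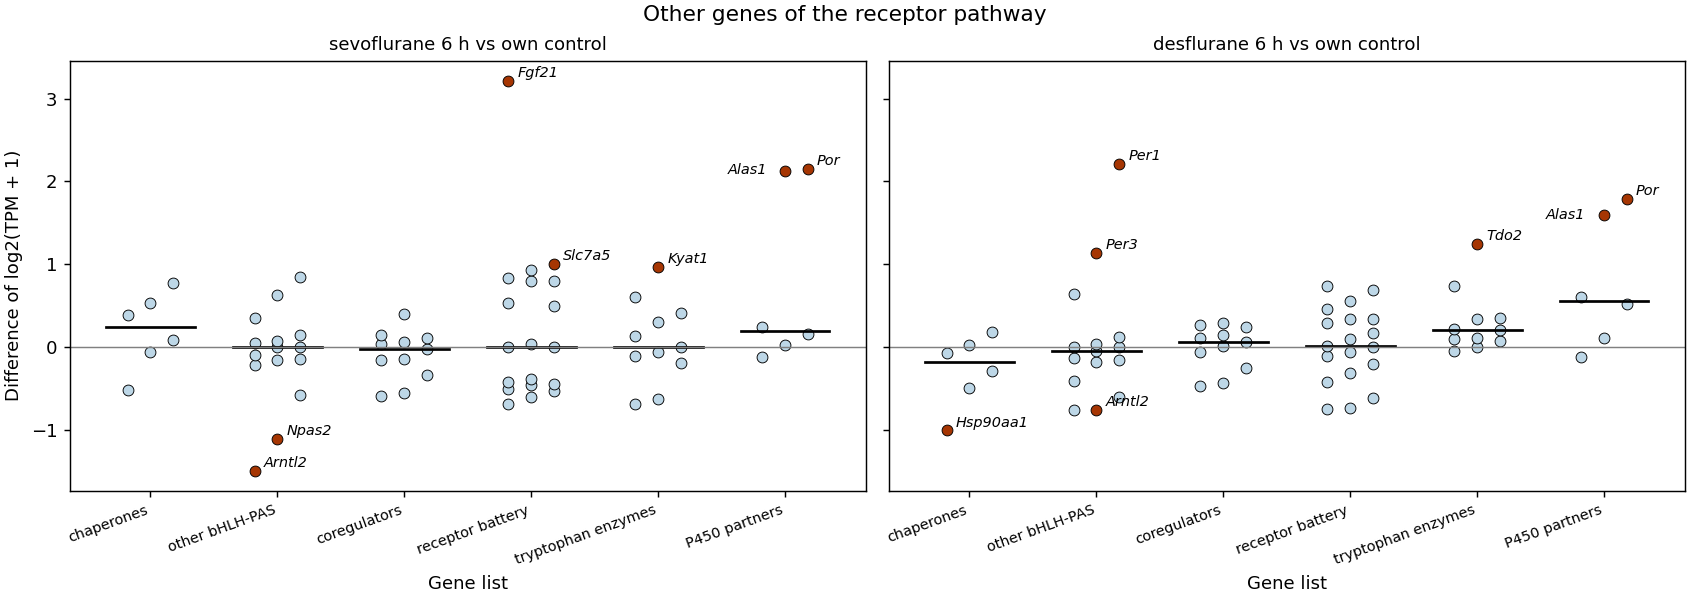
Differences of log2(TPM + 1) after 6 hours of sevoflurane (left) and desflurane (right) against the own control for 6 lists of other pathway genes. Red, labelled points passed the calling limits, blue points did not, and bars are list medians. The receptor battery held no called gene with desflurane, and *Por* and *Alas1* were called with both agents.

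The libraries were similar in size, and the ratio of FPKM to coverage corresponded to between 4.47 and 5.40 Gb of aligned sequence. Reads per gene are not among the columns, so no counting intervals were calculated. The sevoflurane control held transcripts of pancreatic acinar cells, with a summed TPM of 32.7 for 7 genes against 0.196 to 0.738 in the other 3 libraries, and all 7 were called lower in each of these. Macrophage genes summed to 703 and 444 TPM with sevoflurane and to 548 and 671 TPM with desflurane. Over the own controls, 2 of 9 were called lower by sevoflurane, beside 3.30% of all genes tested. With desflurane 0 were called, beside 4.27% in either direction. Over the desflurane control, sevoflurane called 1 of these genes lower, beside 2.59%. In the desflurane control, 8 of the 9 were lower than in the sevoflurane control, with none called. Lymphocyte genes summed to 31.9 and 22.1 TPM with sevoflurane and to 29.0 and 30.3 TPM with desflurane, and without *Cd4*, the most abundant, to 12.9 and 3.80 TPM and to 7.20 and 6.99 TPM. Of these genes, 4 were tested with sevoflurane over its own control and 3 were called lower, beside 3.30% of all genes tested. These were *Cd8a* (0.286-fold), *Cd79b* (0.104-fold), and *Nkg7* (0.234-fold). The last 2 were named after their values were seen. Over the desflurane control 2 were tested and *Cd8a* alone was called lower (0.359-fold), beside 2.59% of all genes tested. In the desflurane control, 7 of the 8 measured were lower than in the sevoflurane control, and *Nkg7* was called (0.461-fold). Of all genes tested, 1.17% were called lower there. With desflurane over its own control 2 were tested and 0 called. Endothelial genes summed to between 288 and 330 TPM and cholangiocyte genes to between 14.3 and 21.0 TPM. *Ahr* differed by 1.01-fold between the sevoflurane control, which held the pancreatic transcripts, and the desflurane control. The part of pancreatic cells and of the other cell types in the values of the receptor genes was not tested.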

How the data were processed

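Liver RNA of 4 rats was sequenced, with 1 library per condition, and conditions were taken from the labels. The authors trimmed the reads, mapped them to rn6 with HISAT2, sorted them with SAMtools, and ran StringTie with the refGene annotation, as the labels and methods state. The deposited tables hold a coverage signal per gene (not scaled for library size), FPKM values (scaled by the authors for library size), and TPM values. The TPM signal in the deposited tables was scaled so that the rows assembled by StringTie add up to 1000000. The annotated rows repeat the same loci on that scale and add up to between 779824 and 813454. Annotated rows longer than 200 base pairs were used, and TPM values were summed by gene symbol.

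Genes were called above 2 TPM in the higher library and above 2-fold. With 1 library per condition, no statistical test was possible. The 7 genes, the pathway lists, and the markers of hepatocytes (general, pericentral, and periportal), stellate cells, endothelial cells, macrophages, lymphocytes, cholangiocytes, and pancreatic acinar cells were chosen with earlier results of these data known. Named genes are the 7 genes, the 2 most abundant of each list, those called the same way against both controls, and the 5 closest in profile to *Cyp1a1* and *Cyp1a2*. Marker lists are given as sums, without most of their named genes, and a gene outside this rule is marked as such. List medians used a pseudocount of 1 TPM. Promoter sequences are from RefSeq (GRCr8). Alternatives covered the TPM and fold limits, a pseudocount, scaling, FPKM, row handling, and the control. Python 3.11.15, numpy 2.4.6, and pandas 2.3.3 were used. The calling code was run on simulated libraries with large planted changes and little noise, which checks the code and not the calls in these data.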

Additional observations from a re-analysis of the deposited data

Results flagged for a closer look

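With sevoflurane and desflurane, *Cyp1a2* differed from the own control in opposite directions, with log2 changes of -0.13 and 1.04. The same held for *Tiparp*, with -0.17 and 0.0089, the second of which is close to 0. Each rests on 1 library per condition, and whether the agents differ was not tested. Among the rows assembled by StringTie, which were not used above, 1 row of 1.05 TPM covered a part of *Cyp1a1* on its strand after 6 hours of desflurane. The desflurane control and the liver after 6 hours of sevoflurane had no such row, and the sevoflurane control had 1 of 0.836 TPM that covered a shorter stretch of the gene.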

How the results depend on the processing

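The call of *Ahr* over the desflurane control was kept under the 12 other settings chosen at the start and under 1 added after the data were seen (assembled in place of annotated rows). Its call over the sevoflurane control was lost with FPKM. The number of the 7 genes called changed as follows. With a TPM limit of 1 it was 3 in place of 2 for desflurane against its own control, and 2 in place of 1 for desflurane against the sevoflurane control and against sevoflurane after 6 hours. Without a limit it was 2 and 2 for sevoflurane, 5 and 4 for desflurane (own control and other control), 1 between the controls, and 2 between the agents. With a fold limit of 1.5, it was 1 for sevoflurane against the desflurane control and 1 between the controls, *Cyp1a2* in each. Between the agents it was 0 with a pseudocount of 1 TPM, median-of-ratios scaling, FPKM, or annotated rows rescaled to 1000000, and 2 with assembled rows added or used in place. For desflurane against its own control it was 3 with assembled rows added, and 1 in place of 2 with median-of-ratios scaling, FPKM, rescaled rows, or the mean of the 2 controls. For desflurane against the sevoflurane control it was 0 with FPKM. Added assembled rows count the same reads again. No log2 change of a called gene changed its sign in the alternatives run. *Ahrr*, listed at 0 in the sevoflurane control, gave no ratio to that library. Over all genes, 275 were called higher and 146 lower with desflurane against its own control. Without a TPM limit these were 1365 and 979, and between the controls 1094 and 920 in place of 114 and 114. A TPM limit of 1 gave 379 and 213 with desflurane against its own control. A fold limit of 1.5 gave 843 higher and 709 lower for sevoflurane against the desflurane control, and 373 and 402 between the controls. Median-of-ratios scaling gave 197 and 196 with desflurane against its own control, so that 50.1% in place of 65.3% of calls were higher. Leaving out a replicate was not possible with 1 library per condition. No paired analysis was possible because each condition has 1 library and the labels give no replicate numbers. The coverage limits statements on *Ahrr*, *Cyp1a1*, and *Cyp1b1*.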

Other observations

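The rows assembled by StringTie split *Arnt* differently between libraries. It was covered by 2 rows in the sevoflurane control and after 6 hours of desflurane, with summed TPM values of 47.4 and 57.4, and by 1 row in the 2 other libraries, with 25.6 after 6 hours of sevoflurane and 31.2 in the desflurane control. The annotated row of the gene gave 27.3 to 34.7 in the same 4 libraries. For *Cyp1a2*, the assembled row had the same coverage as the annotated row in all 4 libraries.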
